A study of Sus scrofa with 36 samples.

Results

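Gene expression in the hearts of newborn pigs was compared between postnatal day 1 (P1) and postnatal day 7 (P7). A gene entered the comparison if 3 or more of the 6 libraries held 10 or more of its counts, as did 5331 of the 9815 genes listed. The pigs were domestic Yorkshire animals, fed normally, whose sex the labels do not give, with 3 pigs at P1 (named P1-4, P1-5 and P1-6 after the columns of the table) and 3 at P7 (P7-4, P7-5 and P7-6). The labels name no allele, drug or injury, and age was the labelled difference. Heart tissue was frozen, total RNA was depleted of ribosomal RNA, and the libraries were sequenced by 1 company. Libraries of P3 and P28 pigs, 3 of each, came from the same set and shared the estimate of the spread. The table was listed for chromosomes 1, 2, 6 and 13 only, and genes it does not list by symbol, among them MYH6, MYH7, TNNI1, NPPA, IGF2 and SLC2A1, were not analysed here.

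The mammalian heart changes its mode of growth shortly after birth. Before birth the muscle grows largely by division of cardiomyocytes, which then leave the cell cycle and go on to grow by enlargement, while endothelial cells, fibroblasts and other resident cells keep the ability to divide. At birth the supply of oxygen rises, the work of the left ventricle increases and the muscle moves from glucose and lactate towards fatty acids as fuel. The study profiled circular and other RNAs of the neonatal pig heart, with an interest in those that act on cardiomyocyte division, and day 1 against day 7 is one of its comparisons. A bulk heart library mixes all of these cells, and in it fewer cells of a type and less RNA per cell cannot be told apart.

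The 6 libraries held 14883800, 13847400 and 12024400 counts at P1 and 10477600, 13169100 and 12351400 at P7, within these 4 chromosomes. RNA of the signal recognition particle (Metazoa_SRP, 9 genes) took 12.9 to 19.5% of the counts at P1 and 7.09 to 19.7% at P7. Neither the totals (exact permutation test, two-sided p = 0.3) nor these shares (p = 0.5) separated the ages, although 3 pigs against 3 cannot give a p below 0.1. The correlation of log2 values across genes was 0.979 to 0.991 between pigs of the same age and 0.965 to 0.980 between ages, and age accounted for 45.4% of the variance among the 6 libraries (exact permutation p = 0.1, the smallest possible). Levels are given in CPM, the counts of a gene scaled to a common library total, here that of this table after TMM, a normalization for library composition. As a check of the tissue, 7 ventricular cardiomyocyte markers were measured, and they summed to between 72068 and 93573 CPM in these 6 pigs.

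Among the genes that passed a test, more were higher at P7 than at P1, while over all genes 2611 log2 fold changes were positive and 2720 negative. In edgeR's quasi-likelihood test with Benjamini-Hochberg adjustment over all 5331 genes, the source of every adjusted p given here, 85 genes rose (1.59%) and 29 fell (0.544%) at an adjusted p under 0.05. These 114 genes were 2.14% of those tested, and the smallest change among them was 0.49 on the log2 scale. All 114 had P1 and P7 libraries that did not overlap, where 15.5% of all genes were higher and 15.4% lower without overlap. The 114 were picked for their difference, so their lack of overlap is no separate evidence. By the thresholds of the study, an unadjusted p of 0.05 or less and a log2 fold change beyond 0.5 in either direction, 403 genes were higher (7.56%) and 210 lower (3.94%), and these are called below genes that passed the study's thresholds. The median log2 fold change of all genes was −0.01. The number of adjusted calls fell whichever of the 6 pigs was left out. It was 27 without P1-4, 29 without P1-5, 22 without P1-6, 30 without P7-4, 21 without P7-5 and 32 without P7-6. The genes that passed the study's thresholds then numbered between 488 and 605. A fit with fewer pigs also has less power, and the part of single animals cannot be told apart from that. Of the 40 genes with an adjusted p under 0.05 that were named by rule, 13 kept it in every setting tried. All 40 kept their direction, which pigs that do not overlap make nearly certain beforehand.

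**Figure D1:**
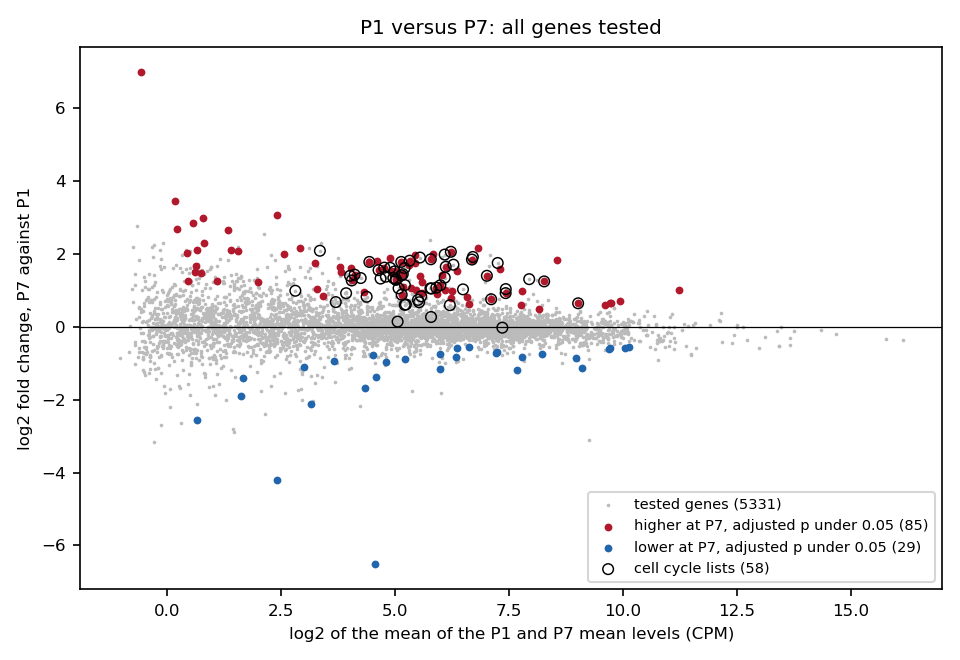
Each point is 1 of the 5331 genes, placed by its mean level over the P1 and P7 pigs and by its log2 fold change, P7 over P1, with the 114 genes at an adjusted p under 0.05 coloured by direction and the 58 genes of the cell cycle lists ringed. The 85 risers outnumber the 29 fallers, and SLC2A5, at −6.52, lies farthest below the rest.

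Of the risers with a symbol, THBS4 had the smallest p. It encodes thrombospondin-4, a secreted matrix protein of muscle and tendon, and lies on chromosome 2 (88726687 to 88780756). Its level was 27.9, 19.5 and 20.8 CPM in the P1 pigs and 105, 75.5 and 91.5 CPM in the P7 pigs. Every P7 pig was far above every P1 pig, and the log2 fold change was 1.99 ± 0.22 (SE; adjusted p = 0.00131). At P28 it measured 40.5, 40.6 and 28.7 CPM, below all P7 pigs. ALCAM, an adhesion molecule of the immunoglobulin family on chromosome 13, was measured at 142, 182 and 171 CPM at P1 against 488, 677 and 608 CPM at P7. The ages did not overlap (log2 fold change 1.84 ± 0.23, adjusted p = 0.00277), and the P28 pigs, at 517, 797 and 494 CPM, were still in the range of P7 or above it. A pseudogene listed within the ALCAM span, ENSSSCG00000044984, moved with it, from 6.83, 8.76 and 8.53 CPM to 21.7, 25.8 and 27.1 CPM (log2 fold change 1.63, adjusted p = 0.00394). How reads in overlapping genes were assigned is not given in the sources used here, so the pseudogene is uncertain; the same doubt covers 47 of the 114 called genes, which overlap another gene with counts.

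LRP8, a receptor of the LDL receptor family that binds apolipoprotein E and reelin, measured 20.4, 23.2 and 16.2 CPM at P1 and 64.6, 68.8 and 68.4 CPM at P7. The P7 pigs were tightly grouped and well above P1 (log2 fold change 1.75 ± 0.23, adjusted p = 0.00277). Its P3 pigs, at 53.6, 66.3 and 82.7 CPM, were already above all P1 pigs. APP, the amyloid precursor protein, was at 1677, 1548 and 1591 CPM in the P1 pigs and at 2839, 3631 and 3198 CPM in the P7 pigs. This was a smaller but uniform rise (log2 fold change 1.01 ± 0.13, adjusted p = 0.00277). The riser with the smallest p of all genes, ENSSSCG00000049279, is listed as protein-coding without a symbol and was singled out after its values were seen. It starts on chromosome 13 at 189716217, next to the listed end of APP at 189716057, and its log2 fold change was 1.54 (adjusted p = 0.000621). LURAP1, an adaptor protein, rose from 17.3, 21.9 and 16.8 CPM to 61.1, 64.7 and 56.8 CPM (log2 fold change 1.70 ± 0.22). GLIS3, a Krüppel-like zinc finger transcription factor, rose from 27.6, 42.6 and 36 CPM to 84.4, 108 and 90.5 CPM (log2 fold change 1.41 ± 0.21, adjusted p = 0.00731). Neither gene had overlapping ages.

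Among genes at low levels, SSUH2 measured 0.371, 0.431 and 0.246 CPM at P1 and 3.15, 2.99 and 1.70 CPM at P7. RNF165, a ubiquitin ligase, measured 0.371, 0.215 and 0.328 CPM at P1 and 2.25, 2.40 and 1.38 CPM at P7. Both were several times higher in each P7 pig, with log2 fold changes of 2.86 ± 0.44 (adjusted p = 0.00839) and 2.69 ± 0.45 (adjusted p = 0.013). Without P1-6 the adjusted p of SSUH2 was 0.0512, and that of RNF165 was 0.0622 without P1-5, 0.0578 without P1-6 and 0.059 without P7-5. The remaining 4 of the 12 protein-coding risers with a symbol that had the smallest p, RCC1, HAUS8, WEE1 and CDKN3, belong to cell division and are described with it.

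**Figure D2:**
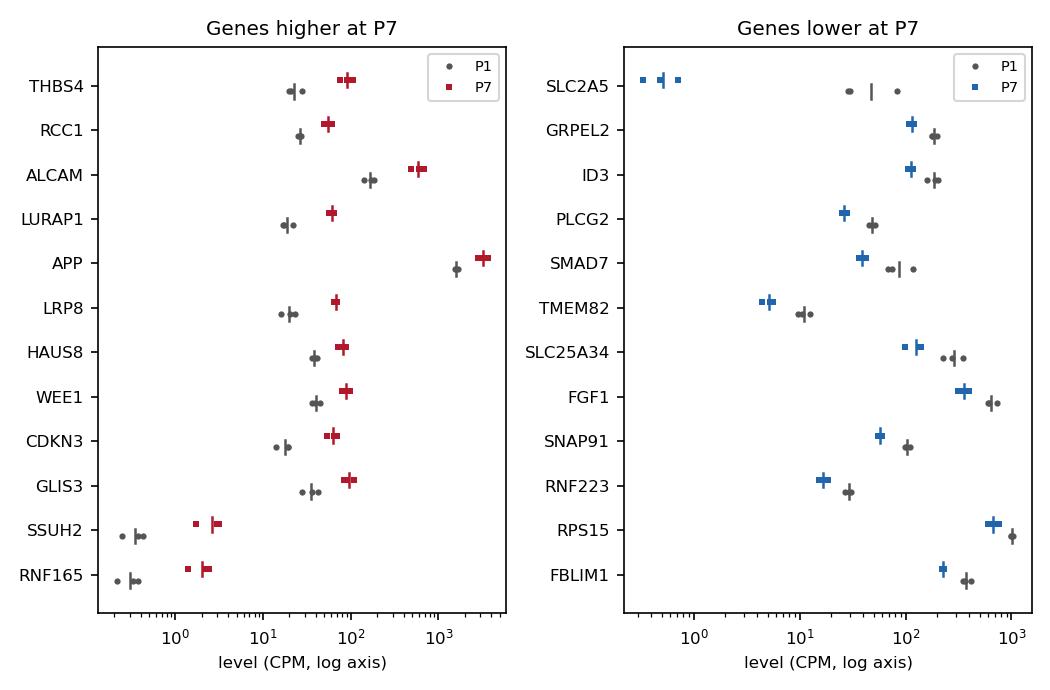
Levels in CPM, on a log axis, of the 12 protein-coding genes with a symbol that had the smallest p in each direction, with P1 pigs as circles, P7 pigs as squares and ticks at the group means. Non-overlap of the 3 P1 pigs and the 3 P7 pigs was a condition for choosing these 24 genes, and SLC2A5 has the widest gap.

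The broadest shift from P1 to P7 was in genes of cell division. The lists for DNA replication and S phase, with 26 tested genes, and for G2/M and mitosis, with 32, were pooled. Both were chosen with earlier results of these data known, so counts of their members are no independent evidence. Of their 58 genes, 23 rose and none fell at an adjusted p under 0.05, where 1.59% of all genes rose. In other settings with all 6 pigs up to 52 rose. By the study's thresholds 55 were higher and none was lower, against 7.56% and 3.94% of all genes. The log2 fold change was positive for 57 of the 58, ranged from −0.02 to 2.09, and had a median of 1.31, a 2.47-fold difference, beside −0.01 for all genes. The summed level of these genes was 2276, 2711 and 2728 CPM in the P1 pigs and 5169, 6288 and 5276 CPM in the P7 pigs. The P7 pig with the lowest sum lay well above the P1 pig with the highest.

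The sum did not move steadily with age. It was 2015, 2159 and 3481 CPM at P3 and 1905, 2477 and 1818 CPM at P28, so P7 stood above both its neighbours in time. The mean was highest at P7 among the 4 ages in 56 of the 58 genes, and in 49 of them all 3 P7 pigs were above all 9 other pigs. Single animals also left a mark: P7-5 was the highest P7 pig in 52 of the genes, P1-4 the lowest P1 pig in 51, and P3-6 the highest P3 pig in 52. Without P1-4 or without P7-5 the number higher at the study's thresholds was 52, and without any other of the 6 pigs it was 55. The adjusted calls fell whichever pig was left out. They numbered 3 without P1-4, 5 without P1-5, 2 without P1-6, 6 without P7-4, 3 without P7-5 and 4 without P7-6. The median log2 fold change then lay between 1.18 and 1.36. Beyond the 4 genes with the smallest p of each list, members were named after their values were seen, to show each role.

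Genes that load and fire replication origins were higher at P7. All 6 tested members passed the study's thresholds, 2 of them with an adjusted p under 0.05, with a median log2 fold change of 1.36. MCM2, a subunit of the replicative helicase, measured 65.8, 72.0 and 75.2 CPM at P1 and 175, 229.8 and 158 CPM at P7. Even the lowest P7 pig was above all P1 pigs (log2 fold change 1.40 ± 0.31, adjusted p = 0.0395). The P28 pigs, at 34.6, 59.5 and 20.0 CPM, were below all of them. GINS3, of the complex that joins the helicase to the polymerases, measured 8.84, 17.9 and 11 CPM at P1 and 36.5, 38.1 and 36.7 CPM at P7, again with no overlap (log2 fold change 1.56, adjusted p = 0.0288). CDT1, which loads the helicase, and ORC1, of the origin recognition complex, had log2 fold changes of 1.34 and 1.38 without reaching an adjusted p under 0.05 (0.154 and 0.0705).

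At the replication fork, all 9 tested genes passed the study's thresholds and 3 rose at an adjusted p under 0.05, with a median of 0.88. CHAF1A, the large subunit of the chromatin assembly factor that lays histones on new DNA, measured 18.7, 18.4 and 20.8 CPM at P1 and 49.5, 59.4 and 48.8 CPM at P7. RFC4, of the complex that loads the sliding clamp, measured 26.6, 25.0 and 23.0 CPM at P1 and 44.3, 49.3 and 43.8 CPM at P7. The pigs of each age kept close together in both genes and the ages were apart (log2 fold changes 1.44 and 0.88, adjusted p = 0.0288 for both). FEN1, which trims the lagging strand, also rose (1.29, adjusted p = 0.0328). Of 7 genes for repair at replication 6 passed the study's thresholds, and among those that rose were POLQ, by 1.85, and RAD54L, by 1.43 on the log2 scale. TIPIN, which steadies stalled forks, was the exception at 0.14 (adjusted p = 0.824).

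Of 4 regulators of entry into S phase, 3 passed the study's thresholds. CDKN2C, which encodes p18, an inhibitor of the cyclin D kinases, rose with the genes of proliferation. Its values were 22.6, 41.1 and 36.6 CPM at P1 and 98.6, 116 and 99.8 CPM at P7. P1-4 was the lowest of all, the ages did not overlap, and the log2 fold change was 1.65 ± 0.29 (adjusted p = 0.0163). CCNE1, the S phase cyclin E1, and E2F2, a transcription factor of S phase genes, had log2 fold changes of 0.99 and 1.40 with adjusted p of 0.0582 and 0.122. RBL2, a pocket protein that holds quiescent cells out of the cycle, stood at −0.02 (adjusted p = 0.949).

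Of the 32 mitotic genes 31 were higher at the study's thresholds. RCC1, the chromatin-bound exchange factor of the Ran GTPase that guides spindle assembly, was not on either list. It measured 26.7, 25.1 and 26.5 CPM in the P1 pigs and 49.5, 60.7 and 54.9 CPM in the P7 pigs, a difference far beyond the spread within either age (log2 fold change 1.08 ± 0.13, adjusted p = 0.00277). Among 9 genes of mitotic entry and the spindle checkpoint all passed the study's thresholds and 4 rose, although CDC25C is counted there under 2 identifiers. WEE1, the kinase that holds CDK1 inactive until mitosis, measured 38.6, 44.4 and 36 CPM at P1 and 84.5, 98.0 and 80.0 CPM at P7. TTK, a checkpoint kinase, measured 21.2, 33.6 and 31.8 CPM at P1 and 114, 142 and 106 CPM at P7. BUB1B, which encodes the checkpoint protein BUBR1, measured 34.2, 49.9 and 50.3 CPM at P1 and 146, 185 and 152 CPM at P7. In all 3 genes P7-5 was the highest pig and no P7 pig overlapped P1, with log2 fold changes of 1.14 (adjusted p = 0.0062), 2.06 (0.0328) and 1.85 (0.034). CDC20, the activator of the anaphase-promoting complex, had a log2 fold change of 1.98 with an adjusted p of 0.0582. The adjusted p of WEE1 was 0.0506 without P1-6.

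Kinetochore and condensin genes had the highest median of the roles, 1.52. All 8 passed the study's thresholds, and SGO1, INCENP, SMC4, CENPN and CDCA5 rose. SGO1, the shugoshin that protects cohesion at the centromere, measured 8.39, 11.1 and 9.68 CPM at P1 and 28.1, 39.5 and 32.9 CPM at P7, without overlap (log2 fold change 1.78, adjusted p = 0.0163). INCENP, the scaffold of the chromosomal passenger complex, rose by 1.41, and SMC4, the core of condensin, by 1.25 on the log2 scale. Of 15 genes of the spindle and cytokinesis 14 passed the study's thresholds and 5 rose. HAUS8, of the augmin complex that multiplies spindle microtubules, measured 35.9, 39.0 and 40.7 CPM at P1 and 83.7, 72.3 and 87.7 CPM at P7. CDKN3, a phosphatase of CDK1 and CDK2, measured 14.2, 19.3 and 19.4 CPM at P1 and 53.1, 69.1 and 64.2 CPM at P7. Each pig at P7 exceeded every pig at P1 in both (log2 fold changes 1.08 and 1.82, adjusted p = 0.00394 and 0.00731). KIF23 and PIF1, a kinesin of the midbody and a DNA helicase, had larger fold changes, 1.92 and 2.09, but an adjusted p of 0.0599 each. TRAIP, a ubiquitin ligase, stood at 0.27 (adjusted p = 0.606).

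RCC1, HAUS8 and CDKN3 kept an adjusted p under 0.05 without any 1 of the 6 pigs. Leaving out single pigs ended the call of other genes of division described here. For CDKN2C the adjusted p was 0.0787 without P1-4, 0.0619 without P1-6 and 0.0714 without P7-5. For SGO1 it was 0.0812, 0.0514 and 0.0742 without P1-4, P1-5 and P1-6, and 0.0837 and 0.051 without P7-5 and P7-6. CHAF1A and RFC4 lost the call without any of the 6, at 0.0594 to 0.132 and 0.0605 to 0.135, and GINS3 without any but P1-5, at 0.0605 to 0.112.

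**Figure D3:**
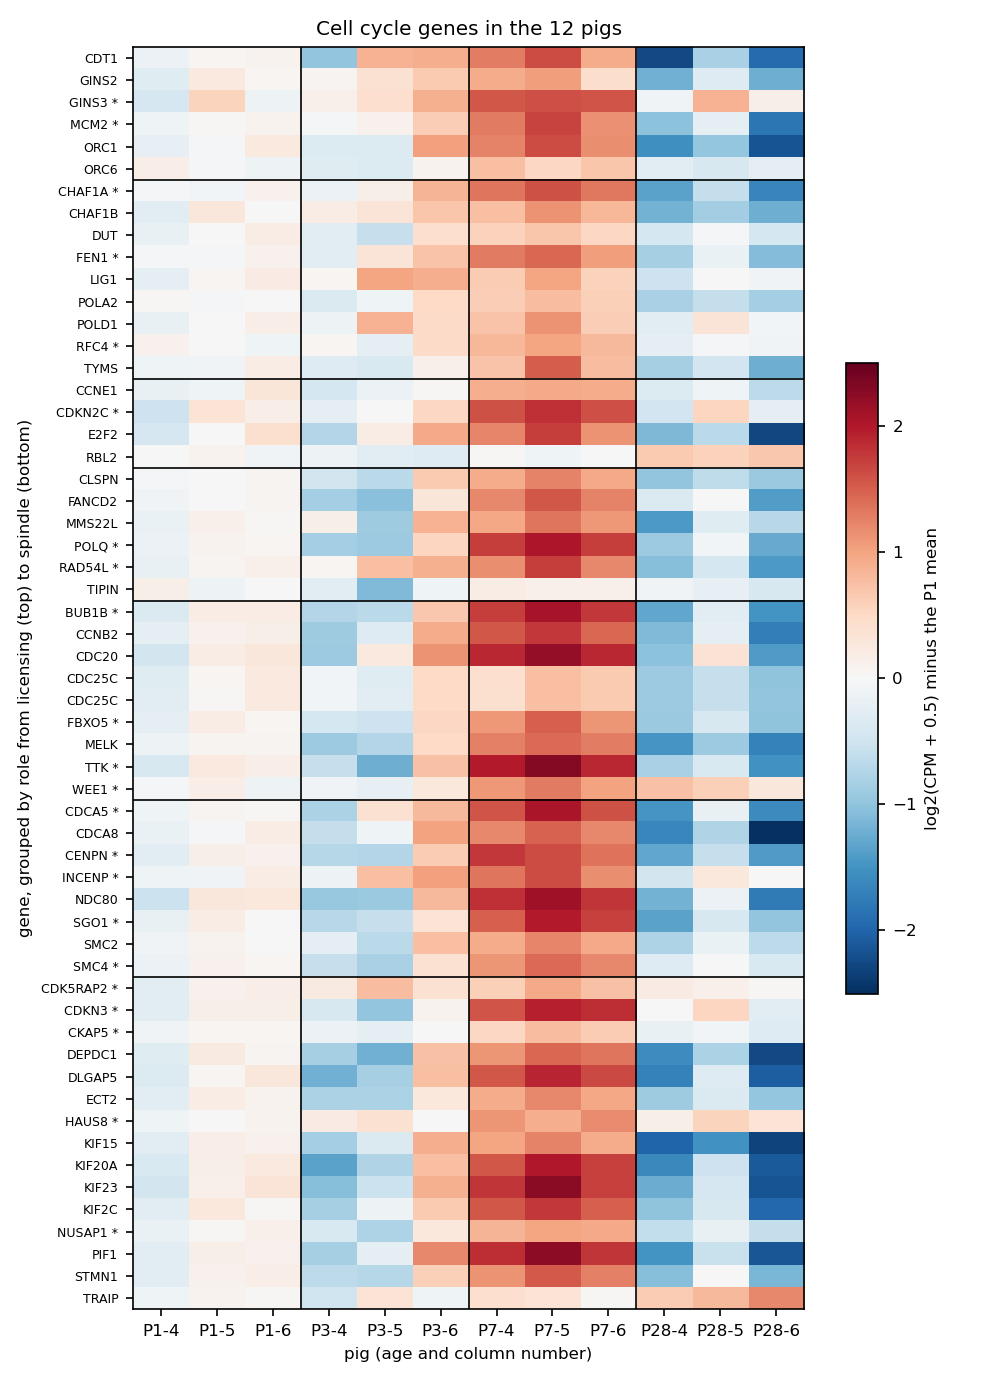
Each row is a gene of DNA replication or mitosis (57 of the 58 tested), grouped by role, and each column 1 of the 12 pigs, with colour giving the log2 level minus the mean of the P1 pigs and an asterisk for an adjusted p under 0.05 between P1 and P7. The 3 columns of P7 hold the highest values, P3-6 stands out among the P3 pigs, and P28 is mostly at or below P1.

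At the other ages most of the cell cycle risers were near their P1 level. Of the 23, the P3 mean was nearer to the P1 mean than to the P7 mean, on the log2 scale, in 22, and the P28 mean in all 23. Among the 62 other risers the P3 mean was nearer to P1 in 38 and nearer to P7 in 24, and the P28 mean was nearer to P1 in 35 and to P7 in 27. For the 29 fallers, P3 was nearer to P1 in 18, and P28 was nearer to P7 in 15. These are descriptions, since P1 and P7 entered each of them and the genes were picked for their difference.

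Markers of several cell types had summed levels that did not overlap between the ages, although of their single genes only SNAP91 passed the adjusted test. Of all genes tested, 15.5% were higher and 15.4% lower without overlap. Summed levels of the 7 ventricular cardiomyocyte markers were 84078 to 93573 CPM at P1 and 72068 to 82437 CPM at P7 and did not overlap. Higher sums at P7 were seen for 2 epicardial markers (139 to 192 against 197 to 234 CPM), for 3 neutrophil markers (3.45 to 4.18 against 5.30 to 6.92 CPM) and for the erythroid gene EPB42 (1.04 to 2.37 against 2.79 to 5.72 CPM). Lower sums were seen for the fibroblast gene TCF21 (38.1 to 44.0 against 31.3 to 34.6 CPM), for 6 lymphocyte markers (622 to 638 against 359 to 516 CPM) and for 3 markers of Schwann cells and neurons (102 to 113 against 63.9 to 69.5 CPM). Each of the latter sums was nearly all 1 gene, CD79A (log2 fold change −0.54) and SNAP91 (−0.84), while the other tested members, 3 lymphocyte genes and CDH19 (1.21), had positive log2 fold changes that did not pass the adjusted test. The 4 endothelial, 2 smooth muscle, 6 macrophage and 3 adipocyte markers overlapped between the ages, no atrial marker was among the tested genes, and no measured marker was at 0 in all 12 pigs. The part of these cells in the changes above was not tested.

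Genes of the extracellular matrix and the heart's peptide hormones showed separate, single changes. Of 47 matrix genes 2 rose, THBS4 and COL15A1, beside 1.59% of all genes. At the study's thresholds 4 were higher and 4 lower (7.56% and 3.94% of all genes), with a median of 0.17. COL15A1, a basement membrane collagen of muscle and small vessels, measured 604, 793 and 809.9 CPM at P1 and 1245, 1256 and 1130 CPM at P7. All P7 pigs were above P1 (log2 fold change 0.72 ± 0.16, adjusted p = 0.0446), and the P28 pigs were back at 494, 771 and 638 CPM. Without any 1 of the 6 pigs its adjusted p was 0.0868 to 0.153. Among 7 genes of natriuretic peptides and the response to stretch 1 rose, beside 1.59% of all genes. At the study's thresholds 1 was higher (2 without P1-4) and 1 was lower, with a median of 0.28. MME encodes neprilysin, the membrane protease that breaks down natriuretic peptides. It measured 13.6, 20.3 and 14 CPM at P1 and 54.7, 38.2 and 42.1 CPM at P7 (log2 fold change 1.49 ± 0.27, adjusted p = 0.0168; 0.0812 without P1-4, 0.0828 without P1-6 and 0.0615 without P7-4). At P28 it stood at 88.2, 85.3 and 46.4 CPM, and 2 of these pigs were above all P7 pigs.

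NPPB, the gene of the B-type natriuretic peptide, was ruled by 1 animal. It measured 3001, 59.3 and 249.7 CPM at P1 and 96.0, 156 and 134 CPM at P7. P1-4 was far above every other pig, P1-5 was below all P7 pigs, and the ages overlapped. Its log2 fold change of −3.10 ± 1.07 did not pass (adjusted p = 0.154) and became −0.26 without P1-4.

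The fall with the smallest p, and the farthest, was in a sugar transporter. SLC2A5 encodes GLUT5, the fructose transporter of the intestine and a few other tissues, and lies on chromosome 6 (69507825 to 69535372). It measured 82.7, 29.6 and 28.4 CPM at P1 and 0.719, 0.333 and 0.487 CPM at P7. Every P7 pig was far below every P1 pig, and P1-4 was the highest of the P1 pigs (log2 fold change −6.52 ± 0.58, adjusted p = 0.000319). The P3 pigs already measured 1.65, 4.0 and 1.41 CPM. Without any single pig the adjusted p was at most 0.00642. A nearby non-coding gene, ENSSSCG00000041487 (69599362 to 69603622), fell with it, from 41.5, 21.1 and 29.8 CPM to 10.4, 8.32 and 10.22 CPM (log2 fold change −1.67, adjusted p = 0.00839; 0.059 without P7-5).

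ENO1 lies on the other side of SLC2A5 (69385882 to 69401117) and encodes the glycolytic enzyme enolase 1, the isoform of embryonic and most adult tissues that mature muscle replaces by ENO3. It measured 1042, 556 and 660.2 CPM at P1 and 325, 358 and 343 CPM at P7. The P7 pigs were close together and below all P1 pigs, among which P1-4 was again the highest (log2 fold change −1.14 ± 0.25, adjusted p = 0.0387). Leaving out any pig but P1-5 raised the adjusted p to between 0.0828 and 0.141. SLC2A5 and ENO1 were the 2 of 29 tested genes of glycolysis and the response to low oxygen that fell. In that list 7 were lower and none higher at the study's thresholds (3.94% and 7.56% of all genes), with a median of −0.30, and without P1-4 the 7 became 4 and the median −0.27. PFKL, a phosphofructokinase picked after its values were seen, at 736, 374 and 515 CPM against 296, 282 and 238 CPM, narrowly missed the adjusted threshold (log2 fold change −0.99, adjusted p = 0.0542). HIF3A, a hypoxia-inducible factor subunit, had a log2 fold change of −1.12 with an adjusted p of 0.242.

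**Figure D4:**
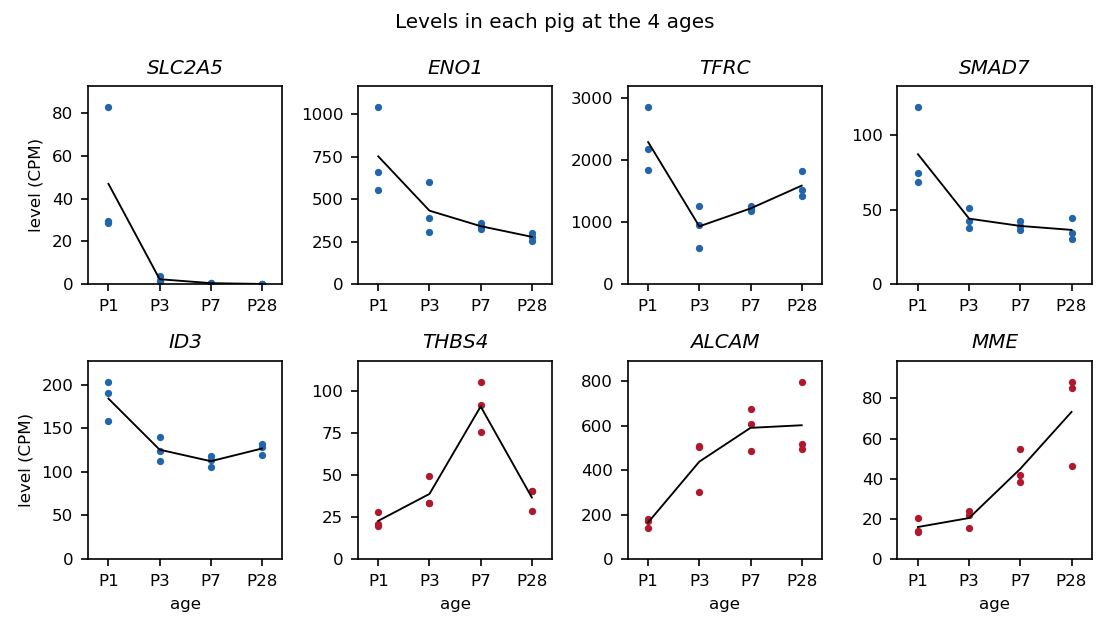
Level in CPM on a linear axis of 8 genes in each of the 12 pigs (points) at P1, P3, P7 and P28, with a line through the means. SLC2A5 is low from P3 on, ALCAM stays high after P7, and THBS4 peaks at P7, while TFRC and ENO1 show the spread among P1 pigs.

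Feedback inhibitors of BMP and TGF-beta signalling were among the fallers. These pathways signal through SMAD proteins, which switch on their own inhibitors, so that the inhibitors serve as readouts of the pathway. The list of 15 tested genes was put together after ID3 and SMAD7 had been seen among the fallers, so its count is no independent evidence. In it 3 genes fell and none rose, beside 0.544% and 1.59% of all genes, and the median was −0.03. CHRD, which encodes the BMP antagonist chordin, was higher at the study's thresholds (0.84, adjusted p = 0.0685). ID3, an inhibitor of differentiation and an immediate target of BMP, measured 203, 190.2 and 159 CPM at P1 and 113, 105 and 118 CPM at P7. SMAD7, which blocks both pathways at the receptor, measured 118, 74.5 and 68.1 CPM at P1 and 36.2, 38.7 and 42.2 CPM at P7. SMAD6, which acts mainly on BMP signals, measured 44.5, 37.1 and 28.6 CPM at P1 and 19, 18.5 and 18.9 CPM at P7. No P7 pig reached the lowest P1 pig in any of the 3, and P1-4 was the highest pig in each (log2 fold changes −0.71, −1.16 and −0.97, adjusted p = 0.0163, 0.023 and 0.0457). The call of ID3 was lost without any pig but P1-6 (0.0511 to 0.103) and that of SMAD7 without P1-4, P7-4, P7-5 or P7-6 (0.0594 to 0.112). Of the 3 calls none was left without P1-4, P7-4, P7-5 or P7-6.

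The other fallers with the smallest p had varied roles. GRPEL2, a cochaperone of protein import into mitochondria, measured 200.3, 177 and 179 CPM at P1 and 119, 107 and 116 CPM at P7. FGF1, the acidic fibroblast growth factor, measured 726, 608 and 603 CPM at P1 and 349.8, 314 and 401 CPM at P7. PLCG2, a phospholipase C of immune receptor signalling, measured 48.0, 51.6 and 45.4 CPM at P1 and 28.0, 25.7 and 25.4 CPM at P7. Each of these 3 genes was lower in every P7 pig than in any P1 pig, with log2 fold changes of −0.70, −0.86 and −0.87 (adjusted p = 0.013, 0.0288 and 0.0178). SNAP91, of clathrin-coated vesicles, and RNF223, a RING finger protein, fell by 0.84 and 0.79 on the log2 scale. On chromosome 6 the neighbours TMEM82, SLC25A34 and FBLIM1, which overlap in the annotation, fell together by 1.09, 1.19 and 0.73, so that reads of one may be counted in another. SLC25A34, a mitochondrial carrier, measured 228, 276 and 348 CPM against 139.9, 99.3 and 136 CPM. All 8 lost the call without P1-6, P7-4, P7-5 or P7-6, with the highest values without P7-5, which were 0.0911 for GRPEL2, 0.0987 for PLCG2 and 0.135 to 0.153 for the other 6. Without P1-4 all but SLC25A34 lost it, and without P1-5 all but GRPEL2.

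All but 1 of the nuclear-encoded genes of the respiratory chain had lower values at P7, by small amounts. Of 25 tested genes of oxidative phosphorylation 24 had a negative log2 fold change, with a median of −0.36, and in 22 the P1 and P7 pigs did not overlap, where 15.4% of all genes were lower without overlap. The member on the other side, COX6B2, a complex IV subunit, was at 0.80 (adjusted p = 0.375), higher without overlap at 0.594 to 1.48 CPM against 1.60 to 2.43 CPM. At an adjusted p under 0.05, 2 fell (0.544% of all genes), and 3 were lower at the study's thresholds (3.94% of all genes; 5 without P7-4). ATP5F1D, a subunit of the ATP synthase, measured 1270, 1206 and 1305 CPM at P1 and 923, 771 and 834 CPM at P7. NDUFA2, of complex I, measured 274, 292 and 280.0 CPM at P1 and 180.1, 144 and 154 CPM at P7. P7-5 was the lowest pig in both (log2 fold changes −0.58 and −0.82, adjusted p = 0.0387 and 0.0435). Both overlap another gene, and both lost the call without any 1 of the 6 pigs (0.0706 to 0.163 and 0.0739 to 0.177). The cytosolic ribosomal proteins, a list added after the values were seen, ran the same way: all 24 were negative, from −0.65 to −0.10, with a median of −0.32, and 20 did not overlap. RPS15 was the member that fell, from 989, 1044 and 995 CPM to 667, 595 and 767 CPM (log2 fold change −0.58, adjusted p = 0.0387, and 0.0513 to 0.163 without any 1 of the pigs).

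Transcripts of both groups are short, and the length of a gene moved with the fold change. In 5 bins of equal size of the protein-coding genes, from shortest to longest, the median log2 fold change was −0.08, −0.02, 0.00, 0.01 and 0.02. With a correction for length, added after seeing this, the median of the respiratory chain genes was −0.31 and that of the ribosomal proteins −0.28. Of the latter 2 in place of 4 were then lower at the study's thresholds, where 3.94% of all genes were. Leaving out 1 pig, without the correction, moved the 4 to between 1 and 6. The part of length in the remainder was not tested.

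**Figure D5:**
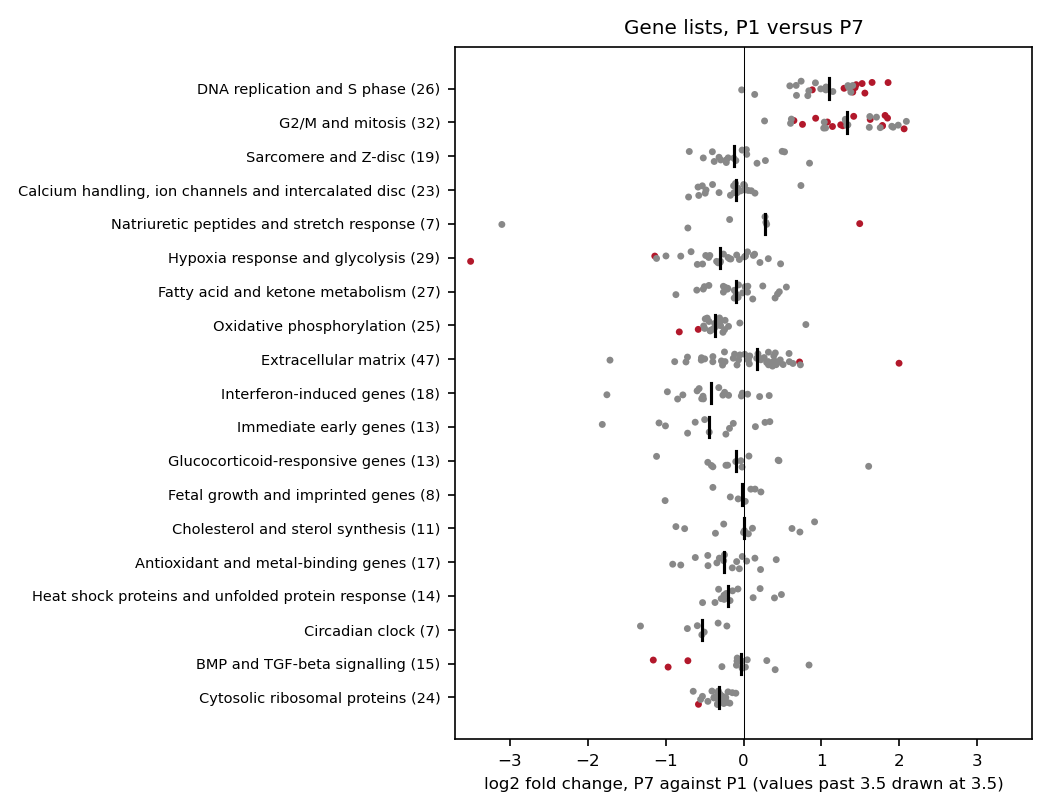
Each point is 1 tested gene of a list and the bar its median log2 fold change, P7 over P1, with red points for an adjusted p under 0.05, a vertical line at 0 and SLC2A5 drawn at the left edge. The lists of DNA replication and mitosis lie to the right almost whole, oxidative phosphorylation and ribosomal proteins lie just to the left, and the muscle lists lie on both sides of the line.

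Genes of the contractile and electrical machinery were mostly slightly lower at P7, and none passed the adjusted test in the fit described, which follows. In other settings with all 6 pigs up to 3 sarcomere genes passed it, all lower. Of the calcium, channel and disc genes up to 2 lower and 1 higher then passed. At the study's thresholds, where 7.56% of all genes were higher and 3.94% lower, the counts were small. Of 19 tested genes of the sarcomere and Z-disc none passed the adjusted test, 2 were lower at the study's thresholds (1 without P1-4 or P7-5 and 0 without P7-6), and the median was −0.13. In 7 of them the P7 pigs were lower without overlap, beside 15.4% of all genes, and the summed level was 96049 to 110256 CPM at P1 and 84768 to 94844 CPM at P7. TNNI3, the cardiac troponin I that takes over from the fetal isoform after birth, measured 14265, 11898 and 13034 CPM at P1 and 9978, 8674 and 8762 CPM at P7. The P7 pigs were below P1 without overlap, yet the adjusted p was 0.0732 (log2 fold change −0.52), and the P28 pigs, at 15871, 14147 and 14820 CPM, were above most P1 pigs. TNNI3 overlaps DNAAF3, SYT5 and PTPRH in the annotation. None of 23 genes of calcium handling, channels and the intercalated disc passed the adjusted test, 1 was higher and 2 were lower at the study's thresholds (0 lower without P1-4, 4 without P1-5, 3 without P1-6 and 1 without P7-4 or P7-5), and the median was −0.10. Their sum was 13632 to 14736 CPM at P1 and 12086 to 12617 CPM at P7, also without overlap. KCNE1, a subunit of the channel for the slow delayed rectifier current, was at 43.5, 51.4 and 54.1 CPM against 96.3, 76.1 and 75.8 CPM (0.74, adjusted p = 0.0628). GJA1, the connexin of ventricular gap junctions, was at 3448, 2975 and 3012 CPM against 1997, 2113 and 2431 CPM (−0.53, adjusted p = 0.0725). Neither gene overlapped between ages.

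None of 27 genes of fatty acid and ketone metabolism passed the adjusted test in the fit described. In other settings with all 6 pigs up to 2 lower and 1 higher passed it. At the study's thresholds 1 was higher and 4 were lower (7.56% and 3.94% of all genes), and the median was −0.09. The 4 became 1 without P1-4, P7-5 or P7-6, and the 1 that was higher became 0 without these and 2 without P1-5 or P1-6. SLC27A4, a fatty acid transport protein, was at 220.4, 204 and 222 CPM against 167, 154 and 153 CPM (−0.44, adjusted p = 0.0758). Of 11 genes of sterol synthesis 1 was higher and 2 were lower at the study's thresholds (2 higher without P1-4), the lower ones being MVD (−0.75, adjusted p = 0.0582) and ACAT2 (−0.87, adjusted p = 0.0669), and the median was 0.01. TFRC, the transferrin receptor through which cells take up iron, measured 2844, 1838 and 2172 CPM at P1 and 1260, 1178 and 1214 CPM at P7. All P7 pigs were lower, P1-4 was the highest pig, and the adjusted p was 0.0664 (log2 fold change −0.91). The P3 pigs measured 1255, 579.8 and 956 CPM, and 2 of them were below all P7 pigs.

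Genes of the clock, of the immediate early response and of the interferon response were mostly lower at P7. In the fit described none of them passed the adjusted test. In other settings with all 6 pigs up to 2 clock genes and up to 3 immediate early genes passed it. The 7 genes of the circadian clock were all negative with a median of −0.53, and 3 were lower at the study's thresholds (3.94% of all genes, here and for the next lists). NR1D2, a repressor of the clock, measured 364, 364 and 345 CPM at P1 and 242, 249 and 249 CPM at P7, and CRY2, which represses CLOCK and BMAL1, measured 467, 295 and 358 CPM at P1 and 243, 224 and 213 CPM at P7. The ages were apart in both (−0.53 and −0.72, adjusted p = 0.0736 and 0.0758). The hour of tissue collection is not given in the sources used here, and its part was not tested. Of 13 immediate early genes, which respond within minutes to growth factors or stress, 4 were lower (median −0.44), with NR4A3 at 141, 52.9 and 108 CPM against 22.6, 21.5 and 42.0 CPM (−1.81, adjusted p = 0.0642) and EGR1 at −1.0 (adjusted p = 0.0882). Of 18 interferon-induced genes 3 were lower (median −0.42), but this count was set by single pigs: 6 without P1-4, 2 without P1-5, 9 without P7-4 and 1 without P1-6, P7-5 or P7-6. For the clock it was 2 without P1-4 or P7-4 and 5 without P1-6. ISG15, a ubiquitin-like modifier, was at 49.8, 68.1 and 73.3 CPM against 37.0, 10.4 and 9.65 CPM, so that P7-4 was the nearest to P1 (−1.75, adjusted p = 0.0838). Without P7-4 it passed, at −2.67 (adjusted p = 0.0157), and without any other pig its adjusted p was 0.145 to 0.293. BST2, which tethers viruses to the cell surface, was at −0.84 (adjusted p = 0.205).

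The other lists lay nearer to the median of all genes than those of the clock, the immediate early and the interferon genes. At the study's thresholds, where 3.94% of all genes were lower, 1 of 13 glucocorticoid-responsive genes was lower (HIF3A, median −0.10), 1 of 8 fetal growth genes (PAPPA, median −0.02), 2 of 17 antioxidant and metal-binding genes (TFRC and SOD2, median −0.24) and 1 of 14 heat shock and unfolded protein response genes (ERO1A, median −0.20). SGK1, PRDX5 and STIP1 stood at −0.41, −0.46 and −0.32 and did not pass them. In other settings with all 6 pigs, 1 glucocorticoid-responsive gene and TFRC passed the adjusted test. In the fit described, no gene of these lists was higher at the study's thresholds or passed the adjusted test in either direction. Leaving out 1 pig moved these small counts: to 0 for the fetal growth genes without P1-4 or P7-5, to 0 for the heat shock genes without P1-4, P7-4, P7-5 or P7-6, to 0 for the glucocorticoid genes without P1-5, and for the antioxidant genes to 1 without P1-4, P7-5 or P7-6 and to 4 without P7-4. In the fetal growth list PAPPA, the protease that frees insulin-like growth factors, stood at −1.01 (adjusted p = 0.192) and moved to −0.47 without P1-4.

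Of 529 tested lncRNA genes 8 rose and 4 fell, beside 1.59% and 0.544% of all genes, and of 143 pseudogenes 2 rose. The lncRNA ENSSSCG00000050105 measured 3.42, 2.23 and 2.63 CPM at P1 and 16.7, 10.8 and 9.49 CPM at P7. ENSSSCG00000051238, which overlaps another gene, measured 61.7, 71.2 and 104 CPM at P1 and 255, 246 and 216 CPM at P7. Both were higher in every P7 pig (log2 fold changes 2.16 and 1.60, adjusted p = 0.00277 and 0.00299), and the second went on to 529, 377 and 456 CPM at P28. Among fallers, ENSSSCG00000049334 went from 6.91, 4.31 and 3.36 CPM to 1.35, 1.26 and 1.30 CPM, and ENSSSCG00000051261 from 3.57, 2.58 and 1.89 CPM to 0.899, 0.399 and 0.0811 CPM (−1.89 and −2.55, adjusted p = 0.0328 and 0.0351). Without P7-5 these were 0.147 and 0.153, the first lost the call without any 1 of the pigs, and the second without any but P7-4 (0.0704 to 0.153). Of the 114 called genes 21 had no symbol, and 2 risers had at most 3 counts in every P1 pig, so their fitted fold is not a bound. Above that floor the largest rise was in PEX5L, a relative of the peroxisomal import receptor, at 0.594, 1.15 and 1.64 CPM against 7.10, 6.59 and 14.8 CPM, a log2 fold change of 3.07 (adjusted p = 0.0291). It was singled out after its values were seen.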

How the data were processed

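The authors deposited a table of raw counts per gene; the alignment program, the counting program, its strand setting and the annotation of that table are not given in the sources used here, and the study names STAR 2.7.9a, MultiQC 1.11 and the build Sscrofa10.2 for its circular RNA data. The positions of 99.9% of 4355 matched genes overlapped those of another build, Sscrofa11.1, so positions are printed as the table gives them. The file gave symbols for 5206 genes, and 283 more came from a list of gene names. Lines of the table with no counts (1) were left out. Labels do not tie column numbers to sample titles, so columns served as replicates of their age.

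Counts were fitted in edgeR 4.0.16 (R 4.3.3), after TMM normalization, with group means for all 12 libraries (8 residual degrees of freedom), and P7 was compared with P1 by the quasi-likelihood test with Benjamini-Hochberg adjustment, two-sided. DESeq2 1.42.0 and limma 3.58.1 were alternatives, as were other scalings, filters, a replicate block and leaving out each pig. The fit was tested on simulated data. Samples are separate pigs per the labels. Counts within 4 chromosomes are not library depth, and the precision of low genes is limited by counting. Plots used matplotlib 3.10.9.

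Named were the 12 protein-coding genes with a symbol and 3 non-coding genes with the smallest p in each direction at an adjusted p under 0.05 without overlap, up to 4 such members of each list or otherwise its 2 with the smallest p, and 10 preset genes; other genes were named after their values were seen. Members and lists were chosen with earlier results of these data known. No sequence is shown, as none was used here. For 1 gene of the cell cycle lists, the values are not reported here, and counts and sums of the lists include it.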

Additional observations from a re-analysis of the deposited data

How the results depend on the processing

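The number of genes at an adjusted p under 0.05, 114 in the fit described, was 362 in the DESeq2 test, 191 in limma voom and 351 in edgeR on only the 6 P1 and P7 libraries, and it ranged from 21 to 32 when 1 pig was left out; the cause was not tested. The other settings gave 88 to 157, and the count at the study's thresholds was 466 to 817 over all settings beside 613. The correlations of same-numbered P1 and P7 deviations were 0.10, −0.03 and 0.14, and whether the numbers pair the pigs was not tested. With the replicate number as a block, 88 genes were called (78 shared with the 114) and 613 passed the study's thresholds. An offset for gene length, chosen after seeing the data, gave 132. Of the 62 genes named by rule, 40 had an adjusted p under 0.05, of which 34 kept it in every setting with all libraries. No direction reversed among the 40, which their choice made nearly certain, as their P1 and P7 pigs do not overlap. Of 640 counts of list members under alternatives, 574 were within 1.5 times the value given. Depth limits the low genes: 2 called genes had at most 3 counts in each P1 library.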
